A study of Sus scrofa with 74 samples.

Results

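Muscles with high transcript levels of the immediate early genes FOS and ATF3 were compared with muscles of low levels, by the mean of both genes, among 74 F2 pigs bred from Duroc and Pietrain grandparents. The members are 48 of the 74 animals, 24 in the high and 24 in the low group. They were selected on measured values. JUNB, the other gene of the rule, has no probe set named for it in the annotation used here, so the score of each animal was the mean z score of FOS and ATF3, read by 1 probe set each. The labels number the animals DRIP 1 to 33 (24 animals) and DRIP 60 to 114 (50 animals). Within each of these label blocks the animals at both ends of the score were taken, 8 a side from DRIP 1 to 33 and 16 a side from DRIP 60 to 114, which left 26 animals in neither group.

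All animals come from 1 population, were sampled in the M. longissimus dorsi, the long back muscle, at slaughter at a mean end weight of 110 kg, and per the methods carry no mutation at the RYR1 locus of malignant hyperthermia. The tissue was snap frozen directly after death, and its RNA was read on Affymetrix porcine arrays, 1 for each animal and none repeated. There was no treatment, and the groups differ by nothing in the labels but the number of the animal. Sex, full-sib family, slaughter date, drip loss and the handling of each animal are not in the labels, many of the animals are siblings, and the p-values below treat them as independent.

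Immediate early genes are switched on within minutes of a stimulus from factors already present in the cell, without new protein synthesis. FOS and JUNB belong to the AP-1 family of paired leucine zipper factors, and ATF3 is a stress-inducible relative. In skeletal muscle such genes respond to contraction, stretch, damage, hormones and lack of oxygen. Their transcripts and those of many of their direct followers are short lived.

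The level of both score genes was high in most of these muscles and is given here as a description, since it chose the groups. All levels are log2 intensities, with every array brought to the same trimmed mean of 500. FOS ranged from 13.06 to 14.77 with a median of 14.40 in the high animals, and from 11.74 to 14.30 with a median of 12.77 in the low animals. ATF3 ranged from 12.42 to 14.38 around a median of 13.69 in the high and from 10.09 to 14.11 around 11.37 in the low animals. The mean of the high group was 2.48 times that of the low group for FOS and 4.39 times for ATF3. Each gene alone overlapped between the groups. The median FOS probe set level of 13.94 over the 74 animals lay above 98.9% of all probe sets that are not controls.

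The blocks stood apart in the score itself. The median FOS level of the low animals was 12.14 in DRIP 1 to 33 and 13.24 in DRIP 60 to 114, and that of the high animals was 13.61 and 14.47. The lowest score of a high animal of DRIP 1 to 33 was -0.01, below the highest score of a low animal of DRIP 60 to 114 at 0.12, so high and low hold only within a block. At the upper threshold the neighbours were almost equal. In DRIP 1 to 33 the last animal taken as high scored -0.01 and the next below it -0.01, and in DRIP 60 to 114 these scores were 0.81 and 0.79. At the lower threshold the last animal taken as low scored -1.21 against -0.90 for its neighbour in DRIP 1 to 33, and 0.12 against 0.28 in DRIP 60 to 114.

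FOS and ATF3 did not always move together. Their levels correlated with r = 0.48 over the 24 animals of DRIP 1 to 33 and r = 0.58 over the 50 of DRIP 60 to 114, where both are read from the same array. Of the 24 high animals, 15 would also have been taken as high by FOS alone, 21 by ATF3 alone and 13 by both. Of the 24 low animals, 15 would have been taken as low by both, and 1 of the 24, DRIP 60, had ATF3 at 14.11, above the median of the high group. In 3 animals FOS was high and ATF3 low by the same rule, and in 4 animals the reverse was seen.

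**Figure D1:**
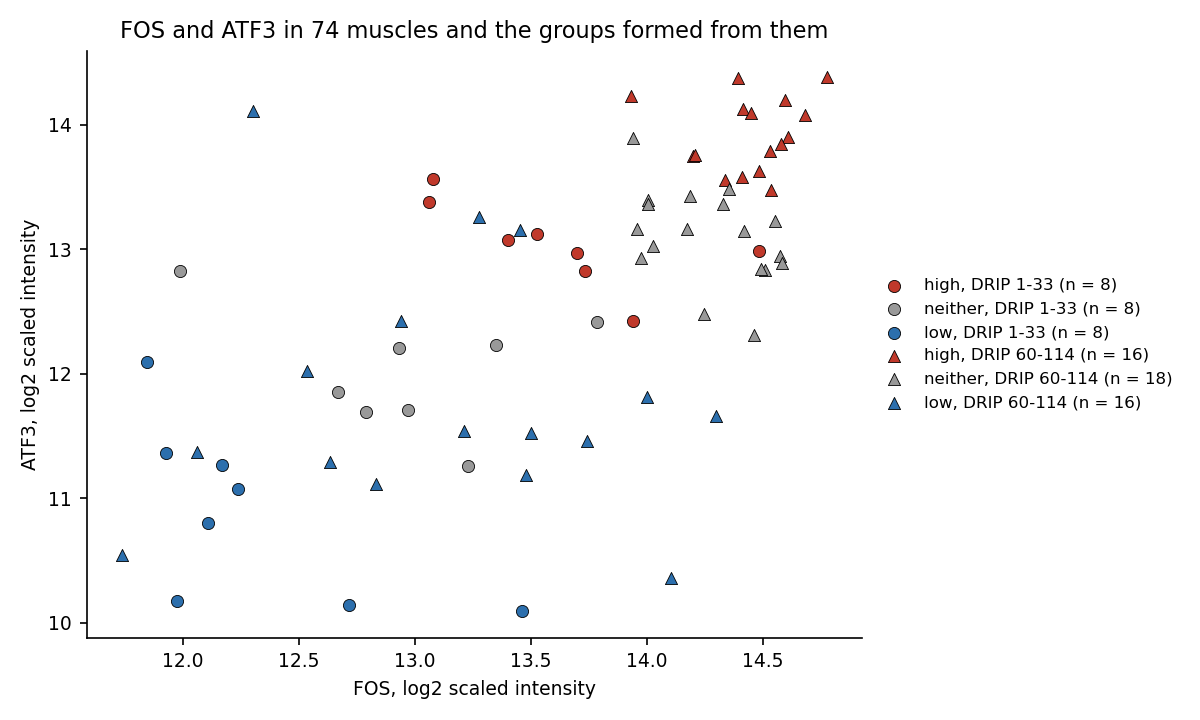
Log2 scaled intensity of FOS (horizontal) against ATF3 (vertical) in each of the 74 muscles, coloured by high, low or neither and shaped by label block. The high animals of DRIP 60-114 lie at the top right with a median of 14.47 for FOS and 13.87 for ATF3, and the animals of DRIP 1-33 are shifted towards lower levels of both.

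The markers of the labelled tissue were abundant. CKM, the gene of muscle creatine kinase, and the fast fibre genes MYH2, MYLPF and TNNT3 lay between the 99.95th and the 99.99th percentile of probe sets. These fast fibre genes encode a myosin heavy chain, a regulatory light chain and a troponin. The slow fibre genes MYH7 and TNNC1 lay at the percentiles 99.85 and 99.68. No difference in an array property passed its test. The level of the arrays before scaling was 118 ± 28.3 (SD, n = 24) in the high and 115 ± 24.3 (SD, n = 24) in the low animals (permutation test within blocks, two-sided, p = 0.577). The mean log2 ratio of 3' to 5' control probe sets, which rises as RNA degrades, was 0.89 ± 0.09 against 0.91 ± 0.14 (permutation p = 0.495). The mean correlation of an array with the others of its block was 0.934 ± 0.012 against 0.927 ± 0.017 (permutation p = 0.101), and of the 6 arrays farthest from the rest 2 belonged to high and 4 to low animals.

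The question of the comparison is which other transcripts differ between muscles at both ends of this score. Of 11451 probe sets tested with limma with the label block as a covariate, 227 passed an adjusted p of 0.05 (1.98%), 152 of them higher in the high animals (1.33%) and 75 lower (0.655%). In the values as deposited, without the scaling, the split was 128 higher and 28 lower. Without the 6 arrays farthest from the rest 347 passed, 203 higher and 144 lower, and 194 of the 227 were among them. The higher ones with a symbol included other immediate early factors such as IER5 and MYC, feedback regulators such as BTG2 and ZFP36, ANKRD1 and XIRP1 of the strain list, and SCD and FASN of the adipocyte list. The lower ones included DDIT4, FBXO32 and UCP3. The median size of a called difference was 0.68 on the log2 scale among the higher and 0.39 among the lower probe sets, and the median over all tested probe sets was -0.02. Of the called probe sets 124 carry 1 gene symbol, which makes 78 genes among the higher and 29 among the lower. The 103 without 1 symbol are counted but not named, and they include the probe set of smallest p, at 13.04 ± 0.58 in the high and 11.76 ± 0.62 in the low animals (SD, n = 24 each), with an adjusted p of 4.63e-09 by limma.

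Some of the other immediate early transcription factors were higher in the high animals. Among 19 such genes measured beside the AP-1 family, 6 were higher and 13 did not pass, and none was lower. Over all tested probe sets 1.33% were higher. IER5, an immediate early regulator of the heat shock factor, ranged from 11.29 to 13.29 with a median of 12.21 in the high animals and from 10.57 to 12.07 with a median of 11.44 in the low. The ranges overlap across the blocks, but 20 of the 24 high animals lay above every low animal of their own block. The difference was 0.94 ± 0.12 (SE), or 1.92-fold with a 95% interval from 1.62 to 2.28, and the adjusted p by limma was 1.61e-06. MYC, a growth-promoting factor, had medians of 9.77 and 8.92 and was 1.86-fold higher (1.51 to 2.29), and 23 of 24 high animals exceeded the low median of their block. The highest MYC level of all, 11.51, was in a high animal.

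KLF4, a zinc finger factor, was 1.73-fold higher, NR4A2, an orphan nuclear receptor, 1.56-fold, IER2 1.42-fold and BHLHE40, a repressor of the clock, 1.47-fold, with adjusted p from 0.000425 to 0.0405 by limma. BHLHE40 did not pass without the 6 arrays farthest from the rest, at 0.51 and an adjusted p of 0.067, nor without the animal DRIP 28 (0.056). NR4A2 did not pass in DRIP 60 to 114 alone (adjusted p = 0.103), with z scores within blocks (0.064), without the block term (0.056) or with either score gene alone (0.208 for FOS, 0.172 for ATF3). IER2 differed by 0.24 with the groups of ATF3 alone (adjusted p = 0.581) and did not pass without the block term (0.0944). EGR1, a zinc finger factor and a classical immediate early gene, is read by 3 probe sets. Its brightest one ranged from 8.30 to 13.32 in the low animals, overlapped the whole high group (10.09 to 13.12) and did not pass (difference 0.90 ± 0.29 (SE), adjusted p = 0.093), while its other probe sets differed by 1.12 and 1.05 and passed. Without the 6 arrays the brightest one passed as well, at 1.04. NR4A3 differed by 0.83 ± 0.32 (SE) with an adjusted p of 0.206. The genes with negative values were KLF11 at -0.48 and KLF9 at -0.27, neither of which passed, and CEBPB at -0.01.

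In the AP-1 family 3 genes other than the score genes were measured, and 2 were higher, where 1.33% of all tested probe sets were higher. JUN, the partner of FOS in AP-1, ranged from 13.72 to 14.60 with a median of 14.10 in the high animals and from 12.95 to 14.69 with a median of 13.76 in the low. Its difference was small and alike in both blocks, 0.37 in each, and 1.29-fold overall (1.15 to 1.46). FOSL2, a FOS relative that accumulates later than FOS, was 1.73-fold higher (1.3 to 2.3, adjusted p = 0.0259). JUN did not pass in DRIP 60 to 114 alone (adjusted p = 0.061 by limma) or with groups of FOS alone (0.218). FOSL2 did not pass without the block term (0.128), with all probe sets tested (0.070) or with groups of FOS alone (0.336). ATF4 differed by 0.09 and did not pass.

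Feedback regulators were the list with the most higher genes by count. By share, the secreted products (5 of 13) and the AP-1 family (2 of 3) had more. Of 22 feedback genes measured, 7 were higher and none lower, where 1.33% of all tested probe sets were higher. The median difference of the list was 0.24 against -0.02 over all tested probe sets. BTG2, an antiproliferative cofactor of mRNA decay, ranged from 11.74 to 15.32 with a median of 13.56 in the high and from 10.39 to 13.82 with a median of 12.11 in the low animals. It was 2.53-fold higher (1.98 to 3.24), with nearly the same difference in DRIP 1 to 33 (1.32) and DRIP 60 to 114 (1.35). ZFP36, which binds AU-rich elements and speeds the decay of cytokine mRNA, was 2.05-fold higher (1.61 to 2.60), and all 24 high animals lay above the low median of their block. PPP1R15A, which directs the phosphatase that restores translation after stress, was 1.76-fold higher, and the leucine zipper repressor NFIL3 was 1.98-fold higher. With groups of FOS alone neither PPP1R15A (adjusted p = 0.138 by limma) nor NFIL3 (0.057) passed.

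The kinase PLK2 was 1.63-fold higher and DUSP1, a phosphatase that switches off MAP kinases, 1.44-fold. PLK2 did not pass with groups of FOS alone (adjusted p = 0.111 by limma). MCL1, a short-lived survival protein of the BCL2 family, moved by 1.32-fold, yet its spread was so small (13.55 ± 0.23 against 13.14 ± 0.26, SD, n = 24 each) that 15 of 24 high animals exceeded every low animal of their block. Not every feedback gene followed. The cell cycle inhibitor CDKN1A differed by -0.04, the NF-kB inhibitor NFKBIA by 0.10 and SGK1 by -0.07, and none of these passed.

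**Figure D2:**
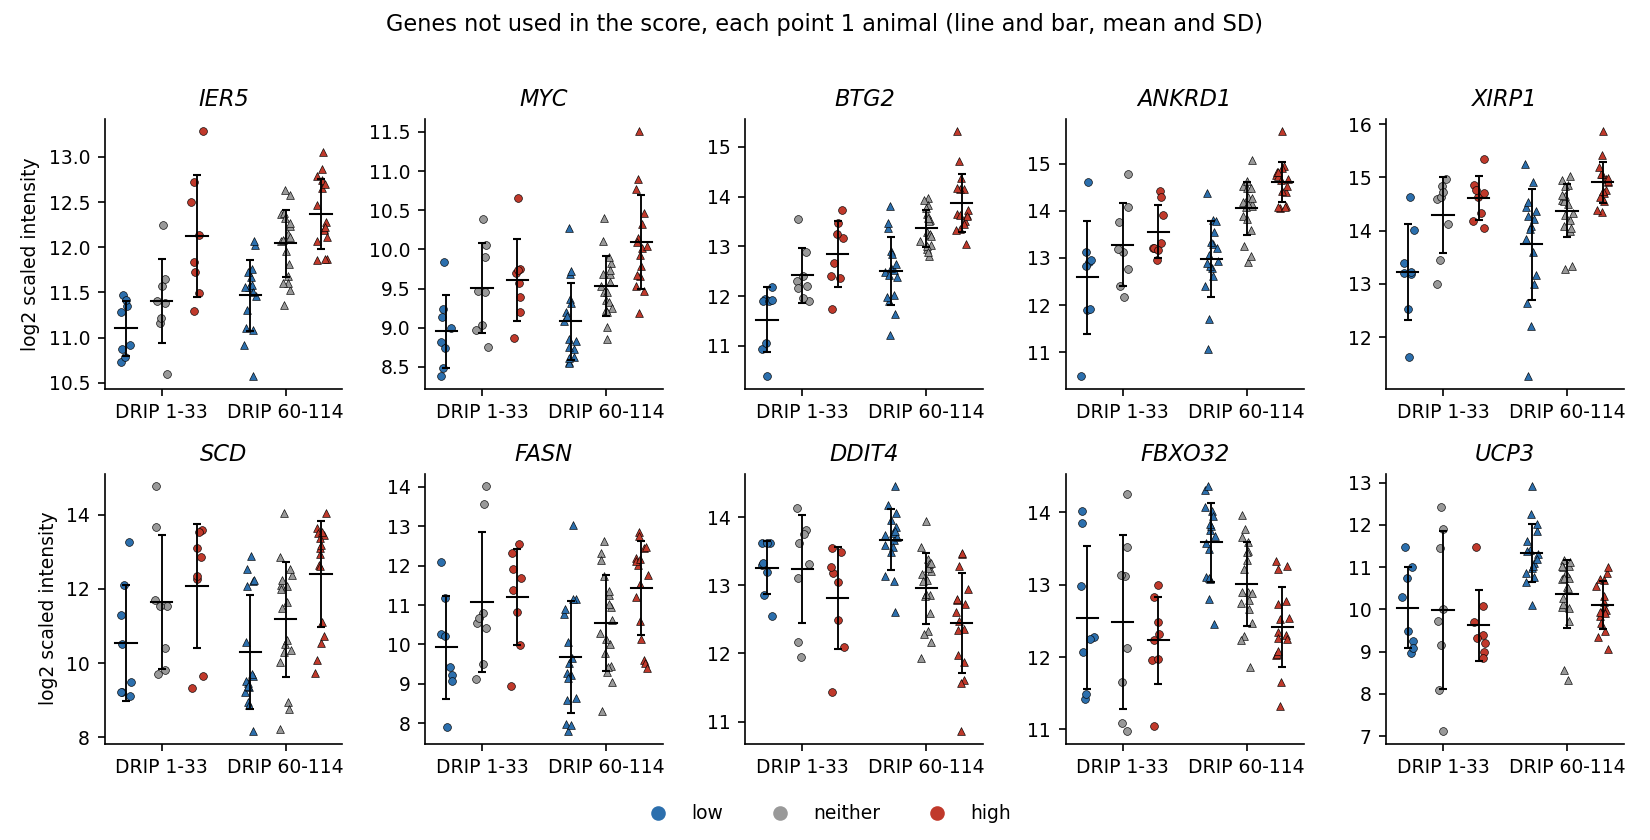
Log2 scaled intensity (vertical axes) of 10 genes that were not part of the score, each point 1 animal, with the low, neither and high animals of DRIP 1-33 on the left and of DRIP 60-114 on the right of each panel; lines and bars are means and SD. IER5, BTG2 and ANKRD1 step upwards from low to high, whereas DDIT4, FBXO32 and UCP3 step downwards in DRIP 60-114 and overlap widely in DRIP 1-33.

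Secreted products of the immediate early response were higher as well, 5 of 13 measured, with none lower. HBEGF, a ligand of the EGF receptor, ranged from 9.44 to 11.50 with a median of 10.28 in the high and from 8.33 to 10.23 with a median of 9.58 in the low animals, and 13 of 24 high animals exceeded every low animal of their block. It was 1.72-fold higher (1.40 to 2.12). The matricellular protein CYR61 was 1.68-fold higher, with 0.77 and 0.74 in the blocks. PLAU, the urokinase-type plasminogen activator, was 1.81-fold higher, the monocyte chemokine CCL2 1.89-fold and the pentraxin PTX3 1.96-fold, with adjusted p from 0.0209 to 0.0432. CCL2 and PLAU each had a long upper tail, to 12.19 and 13.09, above the low maxima of 9.06 and 9.84. PTX3 differed by 1.42 in DRIP 60 to 114 and by 0.08 in DRIP 1 to 33, and its interaction with the block was not called. PTX3 also lost its call in the values as deposited (adjusted p = 0.107), on the score as a continuous measure over all animals (0.120), with groups of 6 and 12 a side (0.214), without the block term (0.0897) and with either score gene alone (0.261 for FOS, 0.445 for ATF3). Of 17 NF-kB and cytokine genes only CCL2 was called, where 1.98% of all tested probe sets were called. EGFR, the receptor of HBEGF, differed by -0.02 ± 0.14 (SE) and did not pass. TNFRSF12A, the receptor of the cytokine TWEAK, was 2.01-fold higher (1.52 to 2.67).

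Genes that respond to stretch and strain of the muscle fibre were among the largest differences. ANKRD1, an ankyrin repeat protein that binds titin and is induced by stretch, ranged from 12.95 to 15.70 with a median of 14.41 in the high and from 10.48 to 14.61 with a median of 12.92 in the low animals. All 24 high animals lay above the low median of their block. The difference was 1.41 ± 0.21 (SE), 2.65-fold (1.98 to 3.56), with an adjusted p of 2.20e-05 by limma, and a dimmer probe set of the same gene differed by 2.40, the largest size of all called probe sets. XIRP1, an actin-binding protein of the myotendinous junction and of damaged sites, ranged from 14.05 to 15.87 in the high and from 11.26 to 15.24 in the low animals. Its high group was narrow (14.81 ± 0.41, SD) and its low group wide (13.57 ± 1.01, SD), and the difference was 1.38 in DRIP 1 to 33 and 1.17 in DRIP 60 to 114.

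RRAD, a small GTPase that restrains calcium channels, was 2.52-fold higher (1.77 to 3.60). LMCD1, a LIM domain protein, was 1.72-fold higher, with 1.19 ± 0.22 (SE) in DRIP 60 to 114 and -0.04 ± 0.21 (SE) in DRIP 1 to 33, and its interaction with the block was not called. These 4 were the genes called among 20 of the strain list. Others of the list were close to 0, such as XIRP2 at 0.12, CAPN3 at -0.03 and FHL1 at 0.00. Outside the list RCAN1, an inhibitor of calcineurin that is itself induced by calcium signals, was 2.28-fold higher (1.72 to 3.03), with 24 of 24 high animals above the low median of their block. Of 33 genes of the SRF and actin cytoskeleton list, with 1.98% of all tested probe sets called, CNN1, calponin, was the only one called, at 1.56-fold. It is also the only one called of 7 smooth muscle and pericyte markers, where ACTA2 differed by 0.06 and TAGLN by 0.13.

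Chaperone genes rose in part. Of 31 heat shock genes 5 were higher and none lower, with a list median of 0.12. Over all tested probe sets 1.33% were higher. DNAJB4, a cochaperone of the Hsp40 family, ranged from 12.27 to 13.74 with a median of 13.21 in the high and from 11.49 to 13.61 with a median of 12.36 in the low animals and was 1.68-fold higher (1.38 to 2.03). HSPH1, of the Hsp110 family, was 1.72-fold higher, DNAJA1 1.55-fold, the heat shock factor HSF2 1.52-fold and the cochaperone BAG3 1.34-fold, with adjusted p from 0.00351 to 0.0449 by limma. The inducible chaperone HSPA6, outside the list, had medians of 9.83 and 9.03 and a long tail up to 14.02 in the high group. It was 2.24-fold higher (1.46 to 3.43), and 1.02 with an adjusted p of 0.062 without the 6 arrays farthest from the rest. The abundant constitutive chaperones showed smaller values that did not pass: HSPA8 0.17, HSP90AA1 0.14, HSP90AB1 0.08 and the mitochondrial HSPD1 0.03. Other members of the list that did not pass included HSP70.2 at 0.48, HSPB1 at 0.29, CRYAB at 0.26 and DNAJB1 at 0.14.

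Of 20 genes of the integrated and endoplasmic reticulum stress list 1 was higher and 1 lower, where 1.98% of all tested probe sets were called. DDIT3, a factor induced by unfolded proteins, was 1.60-fold higher (1.30 to 1.97), and DDIT4, described below among the lower genes, differed by -0.96. HSPA5, the chaperone of that compartment, differed by 0.12, ASNS by 0.31 and XBP1 by 0.16, and none of these passed.

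SCD and FASN, both members of the adipocyte list, are enzymes of fatty acid synthesis, for which no list of its own was used. SCD, the desaturase that makes monounsaturated fatty acids, ranged from 9.33 to 14.06 with a median of 12.89 in the high and from 8.16 to 13.26 with a median of 9.58 in the low animals, and was 3.77-fold higher (2.10 to 6.76, adjusted p = 0.00447). Both groups spanned over most of the range, and 22 of 24 high animals exceeded the low median of their block. FASN, fatty acid synthase, was 3.01-fold higher (1.83 to 4.94), at 11.35 ± 1.18 against 9.76 ± 1.36 (SD, n = 24 each), and lost its call without the 6 arrays farthest from the rest (1.23, adjusted p = 0.058). ACAT2, which condenses acetyl-CoA for sterol synthesis, was singled out after its values were seen and was 1.53-fold higher (1.31 to 1.78), with all 24 high animals above the low median of their block. On the score as a continuous measure over all animals SCD did not pass (adjusted p = 0.070).

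SCD and FASN were also the only genes called among 10 adipocyte markers, where 1.98% of all tested probe sets were called. PPARG, the master regulator of adipocytes, differed by 1.28 ± 0.39 (SE) with an adjusted p of 0.073, the hormone ADIPOQ by 0.51, the fatty acid carrier FABP4 by 0.30, CFD by 0.01 and the lipase LIPE by -0.02. The summed scaled intensity of the 10 markers ran from 9298 to 57259 with a median of 26820 in the high animals and from 8073 to 40820 with a median of 15930 in the low. The mean z score of the list was 0.41 higher (permutation p = 0.0447, adjusted p = 0.414 over 17 array properties and marker scores). None of these markers lay at the floor, and the part of fat cells in the values of SCD and FASN was not tested. In a whole muscle sample a change in the number of cells of a type and a change in RNA per cell cannot be told apart.

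Among the 75 lower probe sets DDIT4, an inhibitor of mTORC1 induced by glucocorticoids, low energy and hypoxia, had the smallest p of any gene with a symbol. It ranged from 10.86 to 13.54 with a median of 12.67 in the high and from 12.55 to 14.46 with a median of 13.62 in the low animals. It was 1.95-fold lower in the high animals, a difference of -0.96 ± 0.17 (SE) with an adjusted p of 0.000425 by limma, and 22 of 24 high animals lay below the low median of their block. FBXO32, the muscle ubiquitin ligase atrogin-1, was 1.85-fold lower, with medians of 12.31 and 13.53, and another of its probe sets differed by -0.95. UCP3, a mitochondrial carrier that rises with fatty acid supply, was 1.95-fold lower, with medians of 9.92 and 11.02. For each of these genes the difference was -0.44 or smaller in size in DRIP 1 to 33 and at least -1.17 in size in DRIP 60 to 114. FBXO32 did not pass with groups of 6 and 12 a side (-0.62, adjusted p = 0.123), and on the score as a continuous measure over the 74 animals neither FBXO32 (adjusted p = 0.084) nor UCP3 (adjusted p = 0.054) passed. In DRIP 1 to 33 the UCP3 difference of -0.42 became -0.68 without the high animal DRIP 28, an alternative chosen after seeing the data.

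These genes share lists. Of 24 genes of the glucocorticoid response DDIT4, FBXO32 and SESN1, a stress-induced regulator of mTORC1, were lower and DUSP1 was higher. The other members measured included FKBP5 at -0.45, KLF9 at -0.27, TSC22D3 at -0.13 and PER1 at 0.03, and none of these passed. Of 23 genes of fatty acid oxidation UCP3 and ETFDH, which feeds electrons into ubiquinone, were lower, and 19 of the 23 had negative values, with a list median of -0.13. ETFDH (-0.31) and SESN1 (-0.28) differed little, and neither passed in the values as deposited or without the animal DRIP 28 (adjusted p = 0.055 for ETFDH and 0.061 for SESN1). PDK4 differed by -0.01 and CPT1B by -0.23. Of 11 atrophy and FOXO genes only FBXO32 was called, while FOXO1 differed by -0.30 and GABARAPL1 by -0.28. Of 19 hypoxia genes only DDIT4 was called, and VEGFA differed by 0.04 and CA9 by -0.08. With 1.98% of all tested probe sets called, a single call in a list of such size says little about the list.

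Further genes lower in the high animals were FMO1, a flavin monooxygenase, which differed by -0.63 ± 0.13 (SE) and by -0.78 and -0.55 in the blocks, and MCRS1 at -0.97 ± 0.20 (SE). MAOB, a monoamine oxidase, differed by -0.69 ± 0.19 (SE), with 0.07 in DRIP 1 to 33 and -1.06 in DRIP 60 to 114, and did not pass without the 6 arrays farthest from the rest (-0.63, adjusted p = 0.054). Among the higher genes outside the lists, TIAM2, an activator of the GTPase Rac, ranged from 8.54 to 11.02 with a median of 9.44 in the high and from 7.38 to 9.62 with a median of 8.45 in the low animals and was 2.07-fold higher (1.69 to 2.54). IFRD1, a transcriptional co-regulator in muscle, differed by 1.00 ± 0.16 (SE), and TRAFD1, a negative regulator of innate signalling, was 1.79-fold higher. SLC3A2, a gene of interest in the study, differed by -0.36 ± 0.16 (SE) and did not pass.

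**Figure D3:**
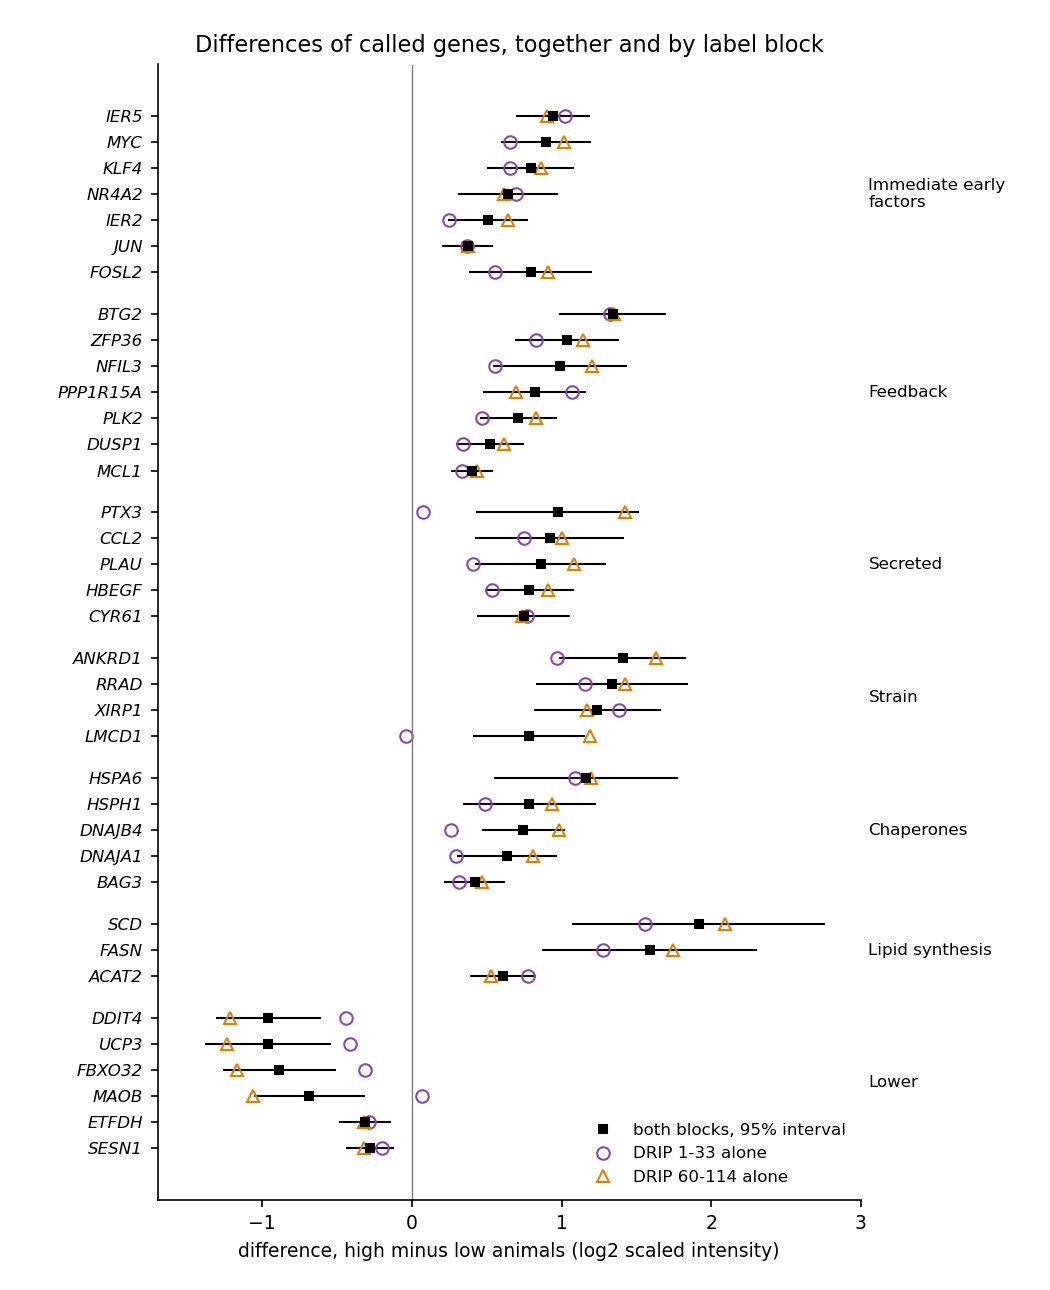
Difference between high and low animals on the log2 scale (horizontal) for 37 called genes in 7 groups; squares and lines are the fit of both blocks with its 95% interval, open circles DRIP 1-33 alone and open triangles DRIP 60-114 alone. All squares of the first 6 groups lie above 0 and those of the last below 0, while in DRIP 1-33 alone LMCD1 is at -0.04 and MAOB at 0.07.

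The abundant transcripts of metabolism and of the contractile apparatus gave no calls beyond those named. None of 60 oxidative phosphorylation genes was called, with a list median of -0.06 and 50 negative values. None of 58 ribosomal protein genes was called, with a list median of 0.05 and 53 positive values. None of 21 glycolytic and none of 38 proteasome genes was called. Over all tested probe sets 1.98% were called and 45.0% were positive. At that share of calls, lists of these sizes would hold few calls or none. The 10 slow fibre genes ranged from MYH7 at 0.03 to CASQ2 at 0.13, and the 9 fast fibre genes from ATP2A1 at -0.07 to MYH2 at 0.09. These values pool blocks of opposite sign. The mean z score of the slow fibre list differed by -0.46 in DRIP 1 to 33 and by 0.58 in DRIP 60 to 114. That of the fast fibre list differed by 0.82 and -0.34 in the same order (permutation p over both blocks 0.353 and 0.877). No test was run on these scores within a block. None of 13 interferon-stimulated, 12 insulin and IGF and 9 myogenic genes was called, and of 18 oxidative stress genes only SESN1. Of 8 clock genes NFIL3 and BHLHE40 were called, both of which stand in other lists too, while PER1 differed by 0.03 and ARNTL by -0.27. Of 14 genes of the cyclic AMP and contraction response NR4A2 was higher and UCP3 lower, and PPARGC1A differed by 0.44 without passing.

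Outside the adipocyte and smooth muscle lists no marker of another cell type passed. None of 13 leukocyte, 14 endothelial, 20 fibroblast and matrix, 3 erythroid and 2 nerve markers was called. At the share of 1.98% called over all tested probe sets, lists of these sizes would hold few calls or none. The summed scaled intensity of the leukocyte markers ran from 4138 to 13119 in the high and from 4394 to 18854 in the low animals, with medians of 7442 and 7291. In the fibroblast and matrix list 18 of 20 values were positive, with a median of 0.12, and 45.0% of all tested probe sets were positive. Its summed intensity ran from 66982 to 110254 in the high and from 41955 to 109577 in the low animals, and its mean z score was 0.28 higher, with 0.05 in DRIP 1 to 33 and 0.39 in DRIP 60 to 114 (permutation p = 0.0908, adjusted p = 0.414). The part of connective tissue in the results was not tested. With the leukocyte score as a covariate 298 probe sets passed in place of 227.

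**Figure D4:**
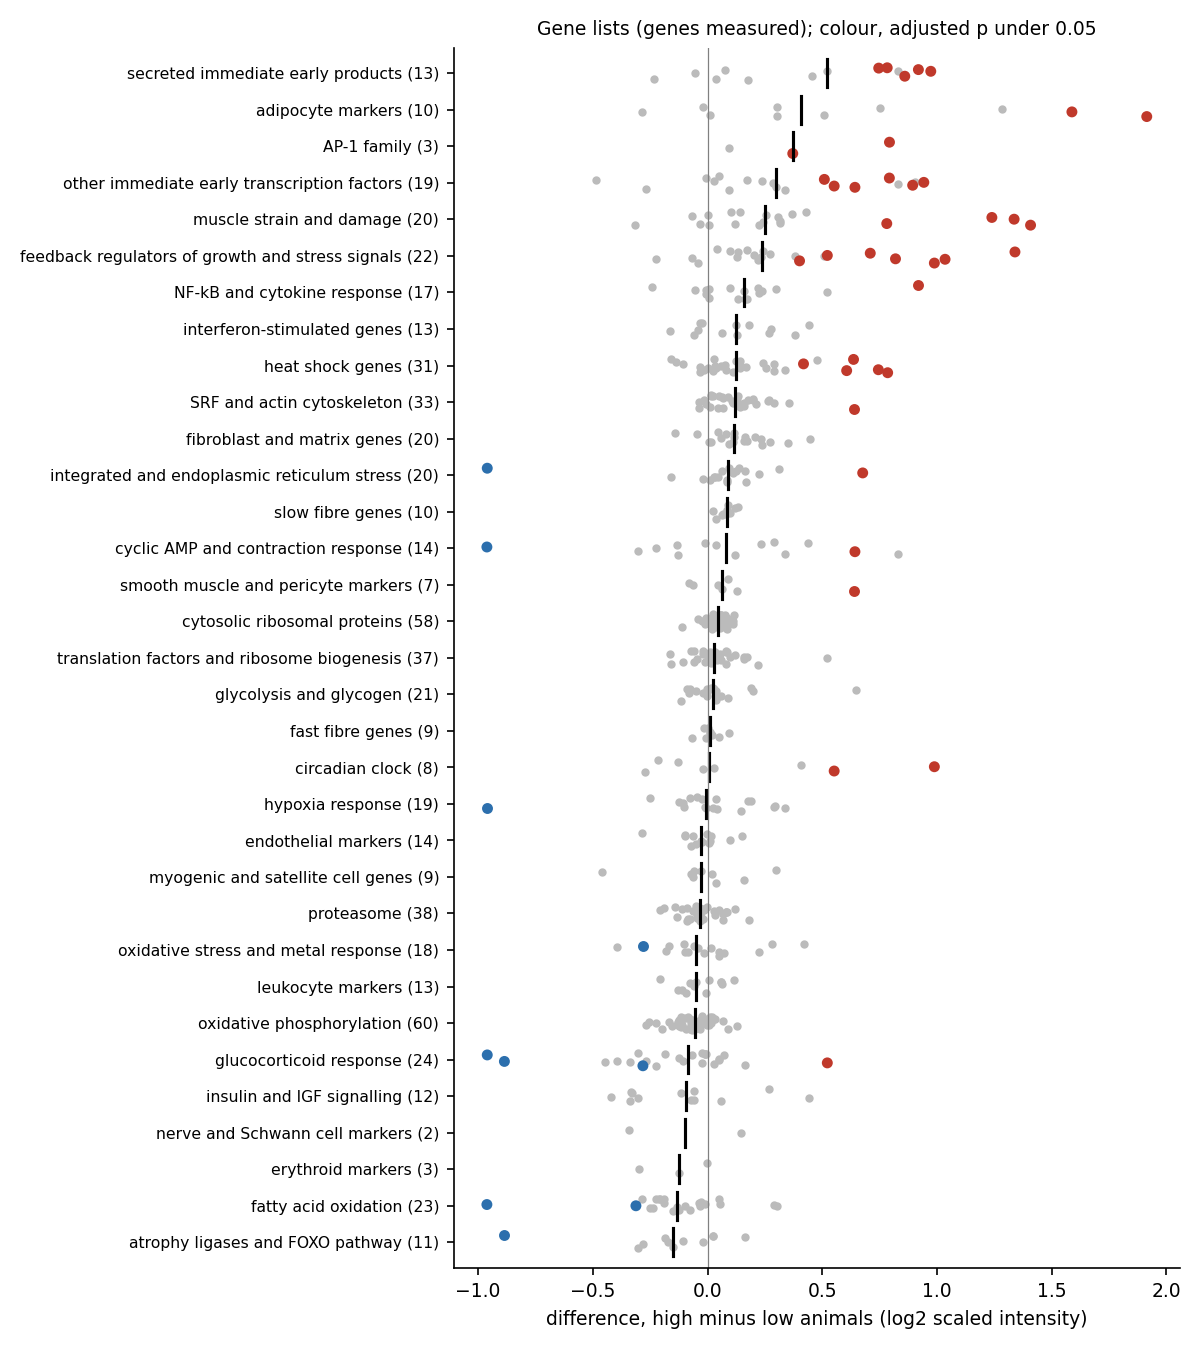
Difference between high and low animals on the log2 scale (horizontal) for each measured gene of 33 lists (number of genes in brackets), sorted by the median of the list, which a black bar marks; red and blue points passed an adjusted p of 0.05, grey points did not. Secreted immediate early products have a median of 0.52. The genes of glycolysis, oxidative phosphorylation and the ribosome have medians of 0.03, -0.06 and 0.05 without a called gene. Of them 50 of 60 oxidative phosphorylation values are negative and 53 of 58 ribosomal values positive.

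The label blocks did not carry the comparison equally. Within DRIP 60 to 114 alone, with 16 animals a side, 394 probe sets passed (3.44%). Within DRIP 1 to 33 alone, with 8 a side, 0 passed by limma, and 610 of 11451 had an unadjusted p under 0.05. Where nothing differs, a share of 0.05 of tests would fall under that threshold. Of the 227 called probe sets 190 also passed in DRIP 60 to 114 alone, and 86 had an unadjusted p under 0.05 and the same sign in DRIP 1 to 33. The sign was the same in 218 of 227 in DRIP 1 to 33 and in all 227 in DRIP 60 to 114, and the animals of both blocks had entered the choice of the 227. The median difference in the direction of the call was 0.35 in DRIP 1 to 33 and 0.69 in DRIP 60 to 114. The difference between the blocks itself, tested as an interaction, was called for 0 probe sets (1047 at an unadjusted p under 0.05), with a smallest adjusted p of 0.15. LMCD1 had an unadjusted interaction p of 0.00127, TRAFD1 of 0.00273 and MAOB of 0.00299.

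The 26 animals in neither group were not used in the test, and by the rule their scores lie between those of the groups. Their mean, with the blocks weighted as in the groups, lay between the high and the low mean for 221 of the 227 called probe sets. As plain means of the 26 animals, without that weighting, ANKRD1 averaged 13.82, between 14.26 and 12.85, and IER5 11.85, between 12.29 and 11.35. Within these 26 animals, however, the slope of expression on the score had the opposite sign to the call in 117 of 227 and the same sign in 110, and none of the 227 passed. The score varied little there, with an SD of 0.22 around the block means against 0.94 in the high and low animals. BTG2 kept a positive slope of 1.16 per unit of score, IER5 of 0.95 and ZFP36 of 1.03, whereas ANKRD1 (-0.36), RRAD (-0.39), SCD (-2.07) and FASN (-1.63) did not. With the score as a continuous measure over all 74 animals, 161 of the 227 passed.

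Groups were also formed by each score gene alone. With the groups formed by ATF3 alone 174 probe sets passed, 117 of them among the 227, and with FOS alone 53 passed, 28 among the 227. EGR1 differed by 1.43 between groups formed by FOS (adjusted p = 0.000859) and by 0.44 between groups formed by ATF3. IER2 showed 0.71 and 0.24 in the same order. NR4A3 ran the other way, with -0.47 for FOS and 1.45 for ATF3, and HSPA6 had 0.44 and 1.37. IER5 was alike under both, at 0.89 and 0.79. These groupings share many animals, and the difference between them was not tested.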

How the data were processed

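RNA from the M. longissimus dorsi of 74 pigs was measured on 1 Affymetrix Porcine Genome Array each. The authors deposited linear intensities. They analysed the arrays with GCOS 1.1.1 at a scaling target of 500, filtered by MAS5 present calls and estimated levels with PLIER. The algorithm behind the deposited values is not named in the sources, and the trimmed means of the arrays ran from 50.3 to 183, so each array was scaled here to a trimmed mean of 500 (2% left out at each end), floored at 1 and taken to log2. As many probe sets of the highest median as the authors kept were used, and 11451 were tested after the score genes were left out. No value tested lay at the floor. The precision is limited by the number of arrays.

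Groups were compared with limma 3.58.1 (R 4.3.3) with the label block as covariate and Benjamini-Hochberg adjustment over all tested probe sets. A gene takes its brightest tested probe set. Outside the control probe sets, 10110 carry 1 symbol, counting a symbol repeated for several gene entries once. Symbols are those of the platform annotation, updated through gene identifiers. Array properties and marker scores were tested with 100000 permutations within blocks (Python 3.11.15, numpy 2.4.6, scipy 1.17.1). Intervals are 95%.

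The members, the 33 gene lists, the tests and the alternatives were chosen with earlier results of these data known. Named genes are the score genes, the 12 of smallest p and the 12 of largest difference in each direction, up to 5 of smallest p per list and up to 2 against its main direction, the immediate early factors, and genes of the study. ACAT2 and ELOVL6 were chosen after their values were seen. The plots of named genes hold called genes of this choice, ACAT2 among them. Alternatives were other scalings, filters, covariates, score definitions and subsets of animals.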

Additional observations from a re-analysis of the deposited data

Results flagged for a closer look

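In DRIP 1 to 33, where the groups have 8 animals a side, 24 such groups of values were examined for a single animal far from the others, and 2 values stood out. Chance alone sets apart about 1 in 20 such groups. UCP3 was at 11.47 in the high animal DRIP 28, while the other 7 high animals of that block lay between 8.85 and 10.08. DRIP 28 is also the animal with the highest score of its block. The mean log2 ratio of 3' to 5' control probe sets was 1.02 in the high animal DRIP 1, against 0.72 to 0.85 in the other 7.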

How the results depend on the processing

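Of 227 called probe sets (152 higher, 75 lower), the count was 137 (98 and 39) with all probe sets tested, 118 (86 and 32) without the block term, 53 (47 and 6) with the score of FOS alone, 394 (234 and 160) in DRIP 60 to 114 alone and 347 without the 6 arrays farthest from the rest, chosen after seeing the data, with 144 lower. The values as deposited gave 28 lower. In DRIP 1 to 33 alone 0 passed by limma in either direction, and in the 26 animals in neither group 2 passed, both lower and 0 higher. Of 11451 tested probe sets 610 and 705, in the same order, had an unadjusted p under 0.05 by limma. The cause of these changes was not tested, beyond the fewer animals or the larger number of tests in some of them. The other alternatives kept the total between 156 and 298. The score without JUNB is the score used and was not run again.

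Of 55 genes followed, those called kept their direction under every alternative run but DRIP 1 to 33 alone, where LMCD1 was at -0.038 and MAOB at 0.069, and the 26 animals in neither group, where 27 reversed. In these 26 animals the slope per unit of score was, for genes higher in the high animals, SCD -2.07, FASN -1.63, ACAT2 -0.99, CCL2 -0.51, PLAU -0.51, HSF2 -0.43, RRAD -0.39, NFIL3 -0.39, ANKRD1 -0.36, TIAM2 -0.35, CNN1 -0.33, GJA1 -0.29, IER2 -0.24, BHLHE40 -0.21, HSPA6 -0.10, PTX3 -0.094, DNAJA1 -0.067, DDIT3 -0.055, DNAJB4 -0.037, and for genes lower, SESN1 0.10, ASB8 0.21, ETFDH 0.28, FBXO32 0.56, UCP3 0.65, MAOB 0.99, SMTNL2 1.23, MCRS1 1.36. Quantile normalization, log2 of the value plus 16, the array level, the leukocyte score, the DRIP number and a trend with robust variance changed no call among the 55. The 3' to 5' ratio as a covariate lost 3 calls, z scores within blocks 2 and the values as deposited 6. All probe sets tested lost 14, the fit without the block term 19 and the continuous score over all animals 8. Leaving out the 6 arrays farthest from the rest lost 4, and DRIP 60 to 114 alone lost 7. NR4A3, not called, turned to -0.47 with the score of FOS alone. Leaving out DRIP 28, chosen after seeing the data, left 246 probe sets called and lost 3 of the 55, BHLHE40, ETFDH and SESN1. The score of FOS alone lost 43 calls and that of ATF3 alone 21. Smaller groups of 6 and 12 a side lost 7 calls, among them FBXO32 at -0.62. No paired analysis was possible because the labels give a single group without pairs. Siblings, sex and slaughter date could not be included, and high and low muscles are ends of a measured range, not treatments.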

Other observations

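Several genes had probe sets that did not move alike. KMT2E, a chromatin regulator, differed by 1.00 ± 0.15 (SE) on one probe set with an adjusted p of 3.06e-05 by limma, and by -0.03 ± 0.14 (SE) on its brightest. TPCN2 differed by -0.55 ± 0.15 (SE) on one and by 0.27 ± 0.13 (SE) on the brightest, which did not pass. ELOVL6, an elongase of fatty acid synthesis singled out after its values were seen, passed on 1 of 3 probe sets, with differences of 1.02, 0.95 and 0.83. FBXO21 passed on 1 of 4, with values from -0.41 to -0.17.

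Among called probe sets without a gene name, 1 was at 10.09 ± 0.65 in the high and 8.32 ± 0.72 in the low animals (SD, n = 24 each), with 0.81 in DRIP 1 to 33 and 2.24 in DRIP 60 to 114. In the other direction the 2 of smallest p differed by -0.89 ± 0.14 (SE) and by -0.77 ± 0.12 (SE).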
